A study of Homo sapiens with 24 samples.

Results

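The EGF receptor family and its ligands were examined in U251 cells, an established human glioblastoma line, exposed to G-1, an agonist of the G protein-coupled estrogen receptor GPER. The set held 9 genes, chosen by name: the receptors EGFR, ERBB2 and ERBB3, and the ligands HBEGF, AREG, EREG, TGFA, BTC and NRG1. Every probe whose RefSeq transcript maps to one of these symbols was used, which gave 17 of the 58118 probes measured and 9 of the 24817 gene symbols. RNA from 4 independent biological replicates per condition was hybridised to 24 one-colour arrays in 6 groups: DMSO, the vehicle, G-1 at its IC50, and G-1 at 1 µM, the higher dose, each for 24 h and for 72 h. All cells were unsorted U251 with no genetic change stated, so the results describe 1 line.

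The data set has a technical limit that touches every result at 1 µM. All 8 G-1 1 µM arrays lay on 1 slide scanned in a session of its own, while the 16 DMSO and IC50 arrays shared the other 2 slides, so dose 1 µM and slide cannot be told apart in a comparison with DMSO or IC50. Median local background was 48 to 58 intensity units on the 1 µM slide and 44 to 48 on the others, and 38 to 40.7% of spots were well above background there against 41.1 to 44.5%. The comparison of 72 h with 24 h at 1 µM lay within that slide. As a description of cell type, 6 astroglial and glioma line markers (GFAP, VIM, NES, SOX2, CD44 and S100B) were all well above background on the 24 arrays. The identity of the line as U251 was taken from the labels and was not tested. Of 4 markers of other cells, PTPRC, PECAM1 and EPCAM were not well above background on any array, and RBFOX3, a neuronal gene, was so on all 24 with 1 of its probes, which fell at 1 µM (-1.26 at 24 h and -1.61 at 72 h on the log2 scale). The summed level of those 4 genes, relative to the 75th percentile of the array, was 2.25 to 4.21 in DMSO 24 h, 1.94 to 4.65 in IC50 24 h, 1.27 to 2.01 in 1 µM 24 h, 2.83 to 4.45 in DMSO 72 h, 2.22 to 4.08 in IC50 72 h and 1.20 to 1.27 in 1 µM 72 h, and its part in the results was not tested.

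EGFR, ERBB2 and ERBB3 are cell surface receptors that pair with each other when a ligand binds and pass the signal to the RAS-ERK and PI3K-AKT pathways. ERBB2 binds no known ligand and acts as the preferred partner, ERBB3 has little kinase activity of its own, and EGFR is often amplified in glioblastoma. HBEGF, AREG, EREG, TGFA and BTC bind EGFR, HBEGF, EREG and BTC also bind ERBB4, and NRG1 binds ERBB3 and ERBB4. The EGFR ligands are made as membrane-bound precursors that ADAM proteases cut to release the active factor. GPER is known for activating EGFR through release of HB-EGF, a step that acts on protein and that arrays do not measure.

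The bases before the start of a gene are shown for 3 members whose RNA differed at 1 µM, HBEGF, TGFA and ERBB2, and for AREG, which was not detected. RefSeq (GRCh38.p14) gave a promoter window for 7 of the 9 genes, and the 250 bases before the first listed start are printed 5′ to 3′, with capitals marking matches on either strand to 5 motifs: AP-1 (TGANTCA), the cAMP response element (TGACGTCA), the GC box (GGGCGG), the E-box (CACGTG) and the TATA box (TATAAA).
HBEGF (chr5:140346604-140346853, minus strand): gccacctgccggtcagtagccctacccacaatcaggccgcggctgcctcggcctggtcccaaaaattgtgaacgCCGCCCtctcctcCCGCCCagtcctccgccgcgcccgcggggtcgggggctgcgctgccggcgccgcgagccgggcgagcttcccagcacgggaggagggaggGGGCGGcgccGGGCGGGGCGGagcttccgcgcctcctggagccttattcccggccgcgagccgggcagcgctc
TGFA (chr2:70553827-70554076, minus strand): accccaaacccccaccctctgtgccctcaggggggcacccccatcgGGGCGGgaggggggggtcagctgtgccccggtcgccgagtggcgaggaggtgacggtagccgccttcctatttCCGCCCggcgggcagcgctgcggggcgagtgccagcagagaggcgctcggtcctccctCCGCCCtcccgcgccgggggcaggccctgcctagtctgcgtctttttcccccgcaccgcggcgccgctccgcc
ERBB2 (chr17:39687844-39688093, plus strand): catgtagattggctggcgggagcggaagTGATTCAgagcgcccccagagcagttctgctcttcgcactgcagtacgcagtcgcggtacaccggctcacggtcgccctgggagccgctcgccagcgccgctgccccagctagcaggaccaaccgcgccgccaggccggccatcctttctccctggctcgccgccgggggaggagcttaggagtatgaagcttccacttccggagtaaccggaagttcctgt
AREG (chr4:74444886-74445135, plus strand): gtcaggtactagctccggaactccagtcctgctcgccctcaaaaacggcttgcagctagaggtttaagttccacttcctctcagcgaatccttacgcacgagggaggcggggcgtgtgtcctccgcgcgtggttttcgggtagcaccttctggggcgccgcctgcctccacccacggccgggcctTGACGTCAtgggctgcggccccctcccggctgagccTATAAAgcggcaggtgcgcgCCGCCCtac
HBEGF held 5 GC boxes and TGFA held 3, and neither window held a match to the other motifs. The GC box was found in 42.6% of the 35116 windows of the same length. ERBB2 held 1 AP-1 match, a motif found in 6.57% of windows. AREG held 1 cAMP response element, 1 GC box and 1 TATA box, where the first was found in 1.65% and the last in 10.7% of windows. A match is a description of letters and not evidence that a factor binds there. On chromosome 4, EREG, AREG and BTC are neighbouring protein-coding genes in the RefSeq order.

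Levels are given as log2 signal minus the 75th percentile of the array, and are compared between arrays. Levels of different probes are not ranked as abundance, and a ratio of a pair of probes within an array is compared only between groups. A probe was tested if at least 1 group had all 4 of its arrays well above background, which kept 12 of the 17 probes and 7 of the 9 genes; a probe kept only through the group where it is high had to differ, which is so of TGFA probe A_23_P377291, so its calls and its place in the counts are descriptions and support nothing. Tests used limma across all 22970 tested probes with Benjamini-Hochberg adjustment, and a differentially expressed gene (DEG) had adjusted p under 0.05 and |FC| above 2 for at least 1 probe. G-1 at its IC50 called 0 of the 7 tested members at 24 h and at 72 h, where 0.061% and 0.117% of all 18023 genes tested were DEGs. By limma, none of the 12 probes had an adjusted p under 0.05, where 0.222% and 0.81% of all genes did, with lowest values of 0.996 at 24 h and 0.405 at 72 h, and at an unadjusted p under 0.05 there were 0 and 1. The methods' t-test called 0 members at the IC50 at either time as well. The 12 log2 differences ran from -0.19 to 0.32 at 24 h and from -0.27 to 0.35 at 72 h.

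At 1 µM, 2 of the 7 tested members were DEGs at 24 h, HBEGF and NRG1, where 3.36% of all genes were DEGs. At 72 h the DEGs were 3, HBEGF, NRG1 and TGFA, where 16.4% of all genes were. TGFA was called on probe A_23_P377291 alone; its other probe changed by less than 2-fold. All 3 are ligands and were higher, where DEGs that rose made up 0.666% of all genes at 24 h and 5.36% at 72 h. Counting every adjusted p under 0.05, 3 members passed at 24 h, with 2 higher and 1 lower, where 33.9% of all genes passed, 18.3% higher and 15.9% lower. At 72 h, 6 members passed, with 5 higher and 2 lower, EGFR standing in both because its probes went opposite ways, where 69% of all genes passed, 32.8% higher and 38% lower. Both counts lie near the share of all genes that passed. An F test over the 4 comparisons with DMSO called the same 3 ligands, TGFA again on that probe, where 17.3% of all genes were called. Over the 12 probes, more than 1 for some genes, the median log2 change was 0.04 at 24 h and 0.79 at 72 h. Over all genes with a symbol it was 0.02 and -0.01, but on 1 brightest probe per gene, an unlike rule. On the brightest probe the members changed at 24 h and 72 h by -0.18 and -0.26 (EGFR), -0.19 and -0.57 (ERBB2), and -0.36 and 0.79 (ERBB3). The ligands changed by 1.08 and 2.08 (HBEGF), 0.16 and 0.79 (TGFA), -0.19 and -0.10 (BTC), and 0.64 and 0.89 (NRG1).

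**Figure D1:**
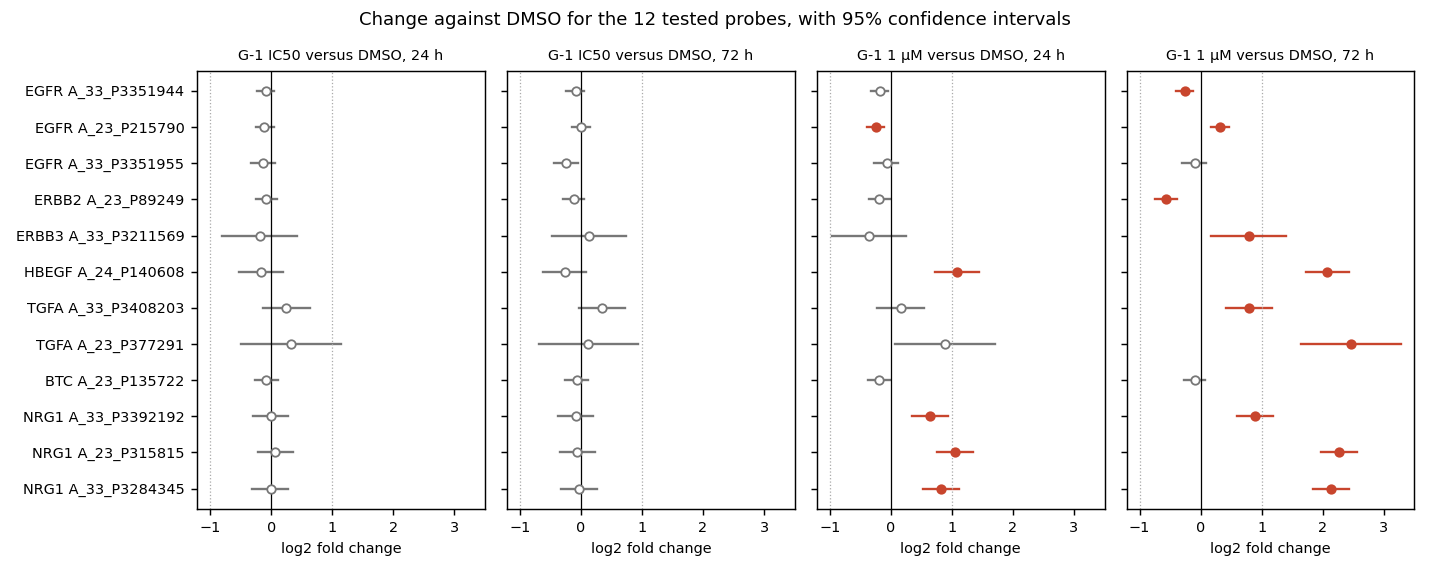
Log2 fold change against DMSO (x axis) for the 12 tested probes (y axis, gene and probe) in 4 comparisons, with 95% confidence intervals. Filled red points passed limma at adjusted p under 0.05, open grey points did not, and dotted lines mark a 2-fold change. No probe passed at the IC50. At 72 h of 1 µM, HBEGF (2.08) and 2 NRG1 probes (2.27 and 2.14) passed the 2-fold line, and the other NRG1 probe did not (0.89). TGFA passed it on probe A_23_P377291 alone (2.47), which the filter kept through that group only, and its other probe did not (0.79).

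Among the receptors, ERBB2 fell at 72 h of 1 µM. Its level was 3.41, 3.53, 3.36 and 3.60 in the DMSO 72 h arrays, 3.38, 3.40, 3.29 and 3.34 at the IC50, and 3.03, 2.93, 2.73 and 2.95 at 1 µM. The 1 µM values lay below all DMSO and IC50 values of that time. The change against DMSO was -0.57 (SE 0.082), a 1.48-fold decrease with limma adjusted p = 5.24e-06, short of the 2-fold threshold. At 24 h the levels were 3.49, 3.22, 3.47 and 3.51 in DMSO and 3.27, 3.06, 3.24 and 3.37 at 1 µM, groups that overlapped. The 24 h difference of -0.19 had a limma adjusted p of 0.0873, and it passed with quantile normalization (-0.25, adjusted p = 0.0148), after normexp background correction (-0.22, adjusted p = 0.0278), and without DMSO 24 h replicate 2 (-0.26, adjusted p = 0.0258) or 1 µM 24 h replicate 4 (-0.23, adjusted p = 0.0498). The ERBB2 probe is printed as 10 spots per array, the other members as 1 spot per probe.

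EGFR was measured by 3 probes that disagreed. They carry the accessions NM_005228, the full-length transcript, and NM_201282 and NM_201283, which RefSeq lists as transcripts of shorter EGFR isoforms, and which part of a transcript each probe reads was not known here. For probe A_23_P215790 (NM_005228), the level was 0.51, 0.33, 0.42 and 0.43 in DMSO 72 h and 0.67, 0.63, 0.91 and 0.73 in 1 µM 72 h, and the groups did not overlap. Against DMSO it rose by 0.32 at 72 h (SE 0.068, 1.24-fold, limma adjusted p = 4.05e-04) after a fall at 24 h, from 0.69, 0.63, 0.56 and 0.56 in DMSO to 0.32, 0.43, 0.37 and 0.33 at 1 µM. That change of -0.25 (limma adjusted p = 0.0101) lost its call after normexp background correction (-0.13, adjusted p = 0.117) and with the 50th percentile (-0.29, adjusted p = 0.109). With the 50th percentile the 72 h rise no longer passed either, by a small margin (0.29, limma adjusted p = 0.0517).

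Probe A_33_P3351944 (NM_201283) went the other way at 72 h. Its level was 1.87, 1.81, 1.69 and 1.94 in DMSO 72 h and 1.54, 1.49, 1.66 and 1.57 in 1 µM 72 h, with no overlap, and it fell by 0.26 (limma adjusted p = 0.00261). Probe A_33_P3351955 (NM_201282) had a difference of -0.10 at 72 h, with a 95% interval from -0.30 to 0.09 and a limma adjusted p of 0.341. Over the 24 arrays the 3 EGFR probes had pairwise Pearson correlations of -0.162, 0.0501 and -0.0101, a description of arrays that share treatment and slide. The log2 ratio of NM_201283 to NM_005228 within an array was 1.41 ± 0.11 in DMSO 72 h and 0.83 ± 0.05 in 1 µM 72 h (SD, n = 4), a difference of -0.58 with a two-sided exact permutation p = 0.0286, the smallest that 4 against 4 arrays can give. Adjusted over the 14 probe ratios compared, a family of tests chosen after the data were seen, this p was 0.0571. No EGFR probe changed by more than 1.24-fold against DMSO.

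ERBB3 was at the edge of detection. Of its 3 probes, the 2 that carry NM_001982 were not well above background on any array, and A_33_P3211569 (NM_001005915) was on 18 of 24. Every ERBB3 value given here is from that last probe, and which ERBB3 transcripts each probe reads was not known here. The level on A_33_P3211569 was -3.25, -3.28, -3.85 and -4.23 in DMSO 72 h, with 2 arrays well above background, and -2.54, -2.75, -2.90 and -3.28 in 1 µM 72 h, with 3. The groups overlapped and the difference of 0.79 (SE 0.29, limma adjusted p = 0.0244) fell to 0.17 (adjusted p = 0.0533) after normexp correction. It also lost its call when no filter on dim probes was used (adjusted p = 0.0512) and without any of DMSO 72 h replicates 3 and 4 or 1 µM 72 h replicates 1 and 2, where it was 0.59 to 0.75.

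**Figure D2:**
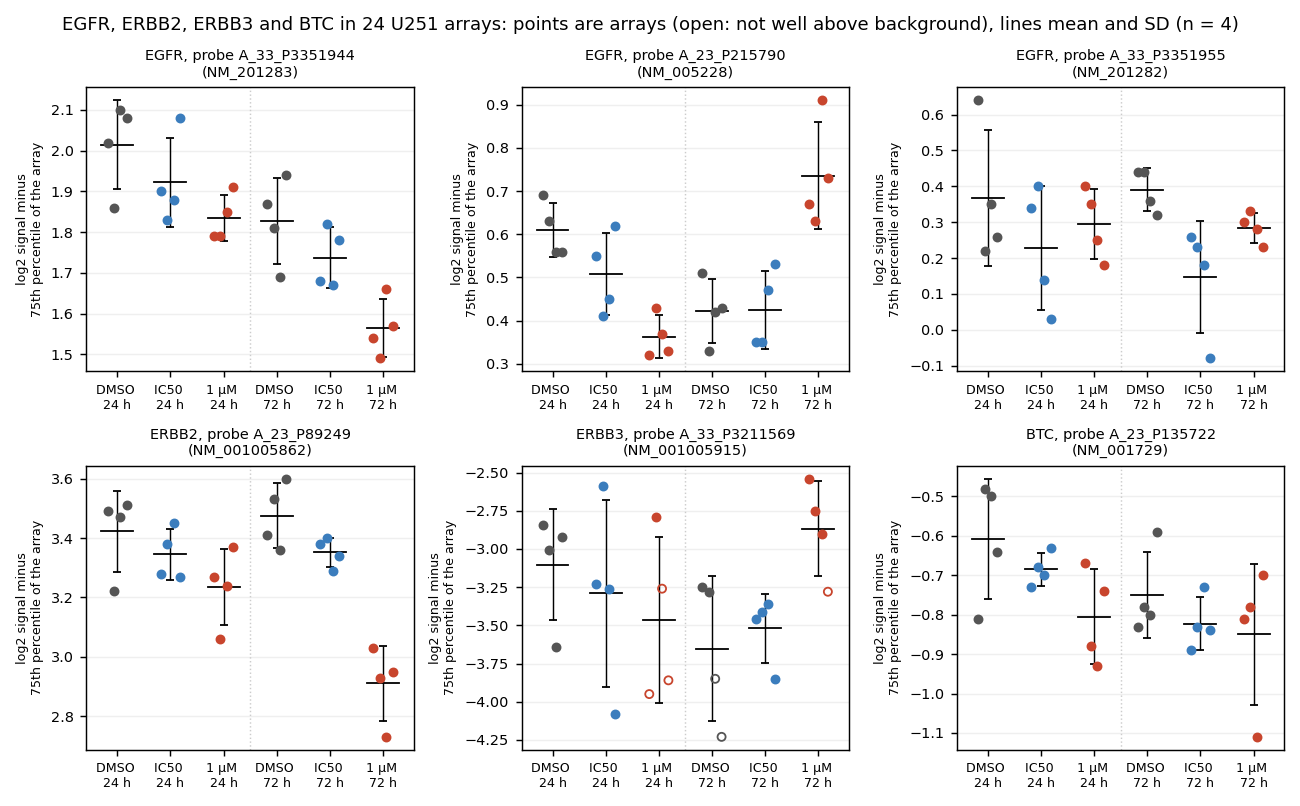
Log2 signal minus the 75th percentile of the array (y axis) for the EGFR, ERBB2, ERBB3 and BTC probes in the 6 groups (x axis). Points are single arrays, filled where well above background, lines are the mean and SD of 4 arrays, and each panel has its own scale. The 1 µM 72 h arrays are the lowest for ERBB2 and for EGFR NM_201283, and for EGFR NM_005228 they lie between 0.63 and 0.91, above the 4 DMSO 72 h arrays.

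HBEGF, the heparin-binding EGF-like growth factor, rose at both times of 1 µM. Its level on probe A_24_P140608 (NM_001945) was 0.13, 0.21, 0.48 and 0.26 in DMSO 24 h, 0.07, 0.10, 0.31 and -0.08 at the IC50, and 1.87, 0.75, 1.62 and 1.18 at 1 µM. All 1 µM arrays lay above all others of that time, and their SD of 0.50 was above the 0.15 and 0.16 of DMSO and IC50. The rise was 1.08 (SE 0.17), or 2.12-fold, with limma adjusted p = 2.14e-04. At 72 h the level was -0.01, 0.09, 0.41 and 0.16 in DMSO, -0.17, -0.19, 0.14 and -0.22 at the IC50, and 2.10, 2.22, 2.54 and 2.10 at 1 µM. Again the 1 µM arrays stood apart, and the rise was 2.08 (SE 0.17), or 4.23-fold, with limma adjusted p = 2.87e-09. In scanner units the 1 µM arrays read 951 to 1450 at 72 h against 206 to 283 in DMSO. At 24 h the value lay close to the 2-fold threshold, and the DEG call, though not the test, was lost without 1 µM 24 h replicate 1 (0.91) and replicate 3 (0.99) and after normexp correction (0.89).

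NRG1, the neuregulin that binds ERBB3 and ERBB4, rose at 1 µM on all of its 3 probes, by sizes that differed between probes. On A_23_P315815 (NM_004495) the level was -0.41, -0.01, -0.43 and -0.62 in DMSO 24 h and 1.00, 0.76, 0.64 and 0.33 in 1 µM 24 h. At 72 h it was -0.53, -0.46, -0.29 and -0.72 in DMSO, -0.62, -0.55, -0.26 and -0.80 at the IC50, and 1.89, 1.73, 1.63 and 1.82 at 1 µM. DMSO and IC50 arrays ran together and 1 µM arrays lay above both at each time. The changes were 1.05 (SE 0.14, 2.07-fold, limma adjusted p = 4.56e-05) at 24 h and 2.27 (SE 0.14, 4.81-fold, limma adjusted p = 4.89e-11) at 72 h. The 24 h DEG call rests on this probe and was lost, with the test still passed, without DMSO 24 h replicate 4 (0.97) and without 1 µM 24 h replicate 1 (0.94), where no member was a DEG, and after normexp correction (0.78).

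A second probe for the same accession, A_33_P3284345, gave 0.82 at 24 h and 2.14 at 72 h, with limma adjusted p of 3.99e-04 and 1.1e-10. Its Pearson correlation with A_23_P315815 over the 24 arrays was 0.991. The probe A_33_P3392192 (NM_001159996) changed less: its level was 1.56, 1.42, 1.21 and 0.82 in DMSO 24 h and 2.04, 2.05, 1.79 and 1.68 in 1 µM 24 h, and 1.15, 1.10, 1.19 and 1.05 in DMSO 72 h and 2.07, 1.90, 2.14 and 1.94 in 1 µM 72 h. These are rises of 0.64 (1.56-fold) and 0.89 (1.85-fold), with limma adjusted p of 0.00228 and 1.32e-05, and no DEG call. The log2 ratio of this probe to A_23_P315815 within an array fell from 1.62 in DMSO to 0.24 in 1 µM at 72 h (exact permutation p = 0.0286, adjusted 0.0571 over 14 ratios). At 72 h it fell from 1.92 to 0.67 against A_33_P3284345, with the same p and adjusted value. Which NRG1 transcripts each probe reads was not known here.

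TGFA, transforming growth factor alpha, rose at 72 h of 1 µM. On probe A_33_P3408203 (NM_001308158) the level was -0.51, -1.13, -0.64 and -1.09 in DMSO 72 h, -0.30, -0.82, -0.39 and -0.48 at the IC50, and -0.10, 0.18, -0.05 and -0.24 at 1 µM. The 1 µM arrays lay above all arrays of both groups, the lowest of them close to the highest IC50 array. Within a treatment this probe also differed by slide. DMSO 72 h read -0.51 and -0.64 on 1 slide and -1.13 and -1.09 on the other. IC50 72 h read -0.30, -0.39 and -0.48 on the first of these slides and -0.82 on the other. The part of slide in the rise at 1 µM was not tested. The rise over DMSO was 0.79 (SE 0.18, 1.73-fold, limma adjusted p = 7.91e-04), and at 24 h the difference was 0.16 with an interval from -0.22 to 0.54. Probe A_23_P377291 (NM_003236) carried the DEG call, which supports nothing because the filter kept this probe through the 1 µM 72 h group alone. It read -3.19, -4.28, -3.89 and -4.81 in DMSO 72 h, with 1 of 4 arrays well above background, and -1.10, -1.59, -1.77 and -1.83 at 1 µM, with 4 of 4. Its difference of 2.47 (SE 0.39, 5.54-fold) was 0.82 after normexp correction, so its size rests on how background was treated. At 24 h its difference was 0.89 (1.85-fold, limma adjusted p = 0.0929), and it became 1.21 without DMSO 24 h replicate 2 (adjusted p = 0.0284) or without 1 µM 24 h replicate 4 (adjusted p = 0.0271). The TGFA probes correlated at 0.731 over the 24 arrays.

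**Figure D3:**
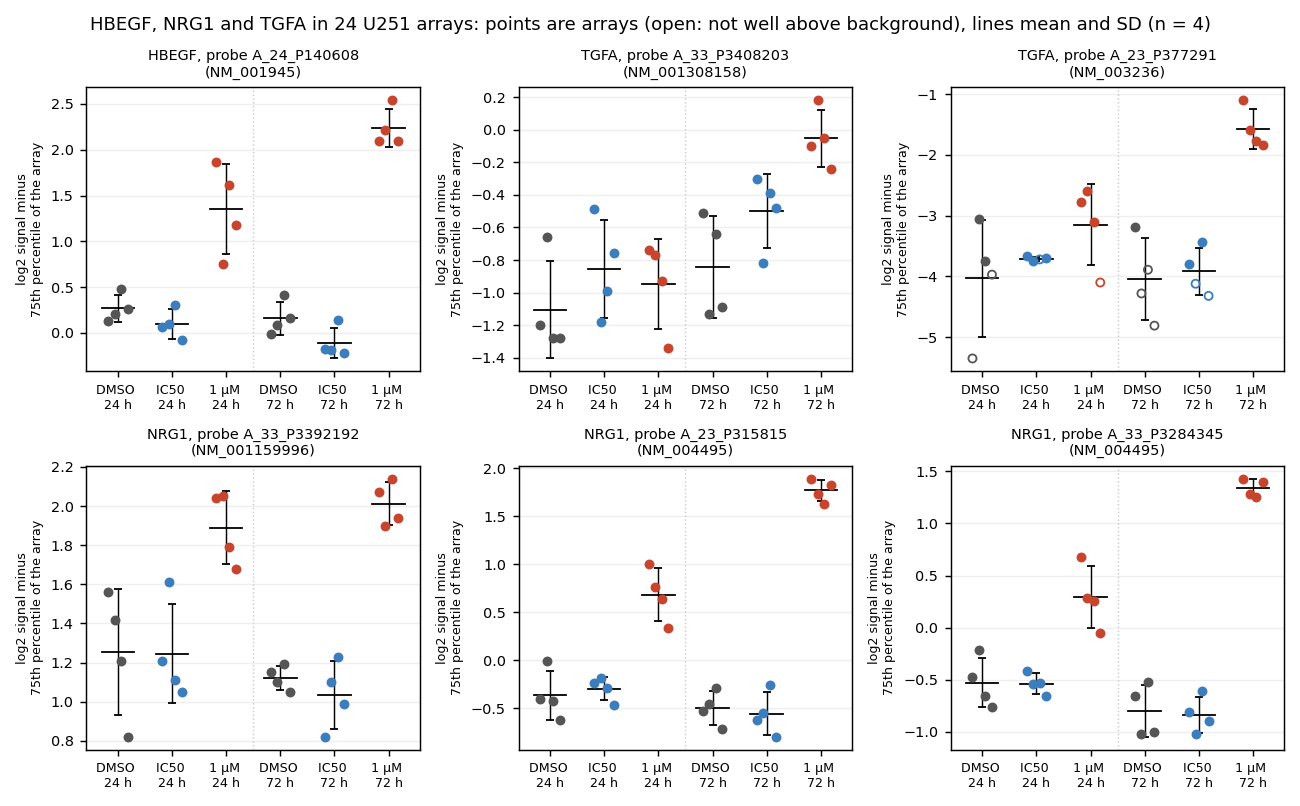
Log2 signal minus the 75th percentile of the array (y axis) for the HBEGF, TGFA and NRG1 probes in the 6 groups (x axis). Points are single arrays, filled where well above background, lines are the mean and SD of 4 arrays, and each panel has its own scale. The 4 arrays of 1 µM 72 h lie above all DMSO and IC50 arrays of 72 h in every panel, and HBEGF reaches 2.10 to 2.54 there.

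In the fit as reported, the remaining EGFR ligands gave no call. BTC, betacellulin, was well above background on all 24 arrays, with levels of -0.83, -0.78, -0.80 and -0.59 in DMSO 72 h and -0.81, -0.78, -1.11 and -0.70 at 1 µM. The groups overlapped and the difference was -0.10, with an interval from -0.28 to 0.08. At 24 h of 1 µM it was -0.19 (limma adjusted p = 0.103), which passed without DMSO 24 h replicate 1 (-0.26, adjusted p = 0.0375). AREG, amphiregulin, with 2 probes, and EREG, epiregulin, with 1, were not well above background on any of the 24 arrays, so no fold change is given for either. When no filter on dim probes was used, AREG probe A_33_P3419190 was called at 1 µM 24 h (limma adjusted p = 0.0474), at a level below detection. That probe read 20.4 intensity units in 1 µM 24 h replicate 1 and 3.47 to 10.3 in the other 23 arrays.

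The change at 1 µM differed between 24 h and 72 h for several members. It did not grow in all of them. For EGFR NM_005228 it turned from -0.25 at 24 h to 0.32 at 72 h. For ERBB3 it turned from -0.36 (limma adjusted p = 0.369) to 0.79, near the edge of detection. The interaction asks whether the change against DMSO at 72 h differs from that at 24 h, and an offset shared by all arrays of the 1 µM slide cancels in it. By limma it passed for 6 members, where 34.5% of all genes passed, and 4 of them also exceeded 2-fold (HBEGF, NRG1, TGFA on probe A_23_P377291 alone, and ERBB3), where 7.31% of all genes did both. HBEGF had an interaction of 1.00 (adjusted p = 0.00402), which stands at the 2-fold threshold. It passed the test in every fit run but fell below 2-fold with normexp (0.81), with slide as a block (0.99), and without DMSO 24 h replicate 3 (0.93), DMSO 72 h replicate 1 (0.94) or 2 (0.98), 1 µM 24 h replicate 2 (0.80) or 4 (0.94), or 1 µM 72 h replicate 3 (0.90). The NRG1 NM_004495 probes had 1.22 and 1.32 (adjusted p = 1.05e-04 and 4.96e-05). The NRG1 NM_001159996 probe had 0.25, with an interval from -0.16 to 0.66. EGFR NM_005228 had 0.56 (adjusted p = 1.56e-04) and ERBB2 -0.38 (adjusted p = 0.0176). TGFA NM_003236 had 1.58 (adjusted p = 0.0346) and ERBB3 1.15 (adjusted p = 0.0405). With normexp the ERBB3 value was 0.12 (adjusted p = 0.435) and that of TGFA NM_003236 was 0.64, past the test but below 2-fold. TGFA NM_001308158 had 0.63 (adjusted p = 0.069), which passed with normexp (0.48, adjusted p = 0.00487), with slide as a block (0.76, adjusted p = 0.000925) and without DMSO 72 h replicate 1 (0.74, adjusted p = 0.039). The ERBB2, TGFA and ERBB3 interactions did not pass when no filter on dim probes was used, with adjusted p of 0.0847, 0.0998 and 0.117. Under leave-one-out the ERBB2 value ranged from -0.43 to -0.31 and passed each time, while the TGFA NM_003236 call was lost without 7 and the ERBB3 call without 10 of the 16 arrays, each left out alone. The interaction of the IC50 with duration called 0 members, as it called 0% of all genes, with a lowest limma adjusted p of 0.999 and 0 probes at an unadjusted p under 0.05.

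Within the 1 µM slide, 72 h was compared directly with 24 h, a comparison added after the slides were seen. HBEGF was higher at 72 h by 0.89 (limma adjusted p = 3.58e-04), the NRG1 NM_004495 probes by 1.08 and 1.05, TGFA by 0.89 and 1.57, and EGFR NM_005228 by 0.37. ERBB2 was lower at 72 h, with a difference of -0.33 (adjusted p = 0.00328), and so was EGFR NM_201283, with -0.27 (adjusted p = 0.0044). NRG1 NM_001159996 differed by 0.12 with an interval from -0.17 to 0.41. In this comparison 2 members, NRG1 and TGFA (on probe A_23_P377291 alone), were DEGs, where 5.95% of all genes were. Between DMSO 72 h and DMSO 24 h no member was called, where 0.183% of all genes were, and by limma the lowest adjusted p was 0.137, with 2 probes at an unadjusted p under 0.05.

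The dose comparison was direct as well. At 24 h, 1 µM against the IC50 called 1 member, HBEGF (1.25, 2.38-fold, limma adjusted p = 1.05e-04), where 3.37% of all genes were DEGs. The 3 NRG1 probes differed by 0.65, 0.98 and 0.83 and passed the test below 2-fold. At 72 h it called HBEGF (2.35), NRG1 (2.33 and 2.18 for NM_004495) and TGFA (2.35, on probe A_23_P377291 of NM_003236 alone), where 15.3% of all genes were DEGs. ERBB2 was lower at 1 µM than at the IC50 at 72 h, with a difference of -0.44 (limma adjusted p = 9.64e-05). These comparisons share the 1 µM arrays with those against DMSO.

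Some members varied together across the 24 arrays and others oppositely. Pearson correlations, a description over arrays that share treatment and slide, were 0.858 between HBEGF and NRG1 and 0.466 between HBEGF and TGFA, and -0.78 between ERBB2 and HBEGF, each gene on its brightest probe. Among 14234 other genes, the 3 most like HBEGF were UTP4, BYSL and MRM3, each at 0.975. Those most like NRG1 were MYLK2 (0.952), CSE1L (0.949) and PARP2 (0.946), and most like TGFA were PRSS12 (0.867), BRME1 (0.866) and COLGALT1 (0.864).

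Of 57 other genes of the pathway in 6 lists, 51 were tested. By limma none passed at the IC50, with 1 at an unadjusted p under 0.05 at 24 h and 3 at 72 h. At 24 h of 1 µM, 13 were higher and 4 lower on their brightest probe, or 25.5% and 7.84%. Of all 14235 genes with a symbol, 18% and 11.8% were, on the same brightest-probe rule. No pathway gene was a DEG on any tested probe, where 3.36% of all 18023 genes tested were. At 72 h, 22 were higher and 15 lower, or 43.1% and 29.4%, beside 32.7% and 33.2% of all genes on the brightest probe. On any tested probe, 4 pathway genes were DEGs, or 7.84%, beside 16.4% of all 18023 genes tested. ADAM12 and NRAS were DEGs only on a probe other than the brightest. Among receptor and ligand genes outside the 9, ERBB4, EPGN, NRG3 and NRG4 were not well above background on any array, EGF had a difference of -0.05 at 72 h, and NRG2, another neuregulin, rose by 0.58 (limma adjusted p = 6.84e-04).

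In the shedding list, 0 of 6 tested genes were higher and 4 lower at 72 h, or 0% and 66.7% beside 32.7% and 33.2% of all genes. RHBDF1, an iRhom that guides the sheddase ADAM17, fell by 0.68 on the log2 scale (limma adjusted p = 7.6e-07). ADAM12, a metalloprotease, fell by 0.67 on its brightest probe and by 1.04 on another that was a DEG. ADAM17, the main sheddase of HBEGF and TGFA, differed by 0.19 (adjusted p = 0.0619). At 24 h only RHBDF2 passed, at -0.27. In the list of receptor inhibitors and turnover, 5 of 12 were higher and 3 lower at 72 h, or 41.7% and 25%, near the shares of all genes. ERRFI1, which binds and inhibits EGFR kinase, rose by 0.49 at 24 h and 0.82 at 72 h (limma adjusted p = 0.00332 and 3.01e-06). EPS15, an endocytic adaptor, fell by 0.94 at 72 h (adjusted p = 2.96e-09). LRIG3, related to the receptor inhibitor LRIG1, fell by 0.57 at 24 h.

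Adaptors and kinases split evenly at 72 h, with 4 of 10 higher and 4 lower, or 40% each, near the shares of all genes. GAB1, a docking protein of the PI3K branch, fell by 0.76 and the kinase SRC rose by 0.50. The GAB1 probe was dim, with a mean level of -3.22, and was well above background on 19 of 24 arrays. At 24 h STAT3 and GRB2 rose by 0.30 and 0.28. In the RAS-ERK list, 6 of 12 were higher and 0 lower at 24 h, or 50% and 0% beside 18% and 11.8% of all genes, led by HRAS (0.57, limma adjusted p = 1.3e-04) and MAP2K1 (0.32). At 72 h, 6 were higher and 2 lower, or 50% and 16.7% beside 32.7% and 33.2%. RASA1, a negative regulator of RAS, rose by 1.26 (limma adjusted p = 3.47e-09) and HRAS by 0.92, and NRAS by 0.88 on its brightest probe and 1.1 on the other, the DEG call. In the PI3K-AKT list, 6 of 9 were higher and 2 lower at 72 h, or 66.7% and 22.2% beside 32.7% and 33.2%, and the regulatory subunits PIK3R3 and PIK3R2 went opposite ways, at 1.13 (limma adjusted p = 3e-06) and -0.85 (limma adjusted p = 5.44e-10). At 24 h AKT1 (0.34), AKT2 (0.29) and PIK3R2 (-0.29) passed. With the 50th percentile in place of the 75th, the 24 h counts over all lists were 3 higher and 2 lower.

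**Figure D4:**
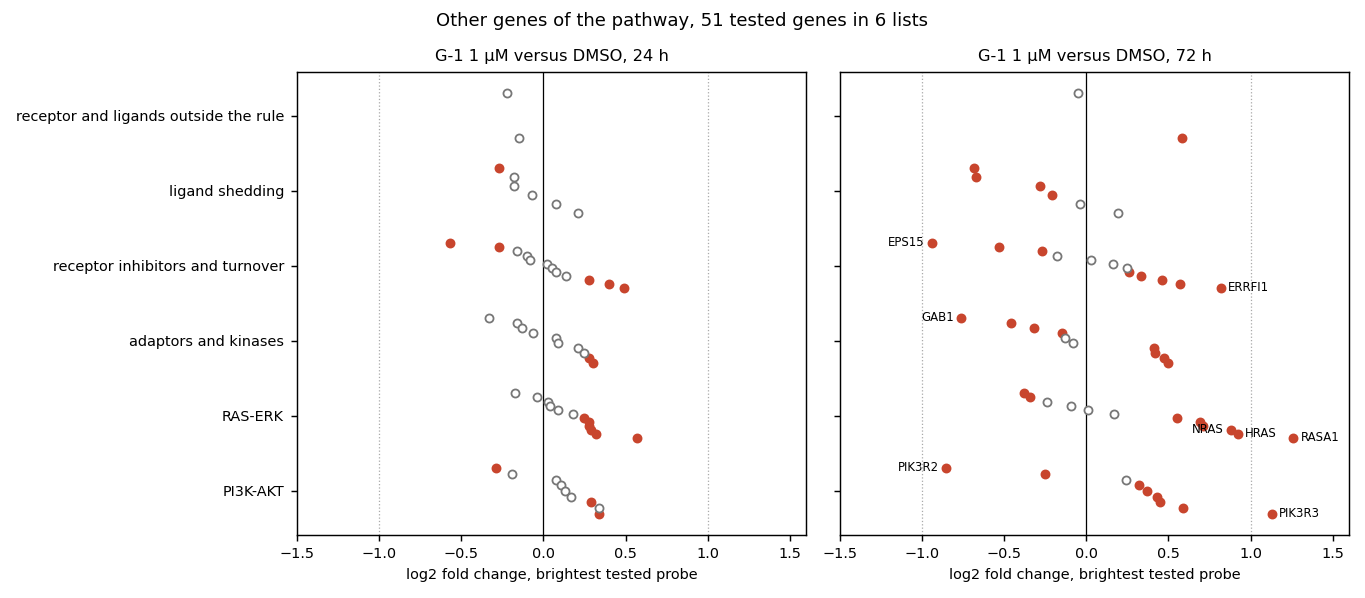
Log2 fold change (x axis) of 51 tested pathway genes, 1 point per gene on its brightest probe, in 6 lists (y axis) at 24 h and 72 h of 1 µM against DMSO. Filled red points passed limma at adjusted p under 0.05, open grey points did not, and dotted lines mark a 2-fold change. RASA1 and PIK3R3 lie past the 2-fold line at 72 h, and the 4 passing shedding genes lie below 0.

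Astroglial and glioma line markers moved at 72 h of 1 µM. All 6 glioma line markers fell past the test on their brightest probe, where 33.2% of all genes with a symbol were lower on that rule. CD44 had 2 tested probes, and in the interaction of 1 µM with duration the brightest had -0.29 and the other 1.06, a DEG call. At 72 h against DMSO, GFAP changed by -2.75 and S100B by -2 on the log2 scale, both DEGs, where 16.4% of all genes tested were. On the brightest probe VIM, NES, SOX2 and CD44 changed by -0.29 to -0.87. The summed level of the 6 markers was 950 to 1100 times the 75th percentile in DMSO 72 h and 676 to 769 in 1 µM 72 h, and its part in the changes of HBEGF, NRG1, TGFA and ERBB2 was not tested. In RNA from a whole culture, fewer cells that express a gene and less RNA per cell cannot be told apart.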

How the data were processed

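U251 RNA was measured on 24 Agilent SurePrint G3 arrays, 4 per group. Per the labels and methods, the authors labelled RNA with a low-input QuickAmp kit and extracted signals with Feature Extraction (10.7.3.1 in the submitters' processing notes, 12.1.1.1 in the file headers), giving background-subtracted intensity per spot. The authors also deposited a log2 table of the same arrays, which differed from the values below by a median of 0.0141 and whose use is an alternative; it is described as log2, its centring is unstated, and its column medians ran from -0.348 to 0.557.

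From the deposited intensity, log2 was taken, outlier spots were dropped, spots of a probe were averaged and each array's 75th percentile was subtracted. A probe entered the tests if it was well above background throughout at least 1 group of 4 (22970 of 58118; 83 probes without a value on all arrays were left out). Symbols came from the arrays' RefSeq accessions through RefSeq. One fit of 6 group means used limma 3.58.1 in R 4.3.3 on all 24 arrays, with no covariate, and was tested on simulated data. Group titles were used, since 2 groups' duration fields contradict titles and source names. A gene was called a DEG if any of its probes was, also in the pathway lists. In pathway counts of genes past the test, the brightest tested probe stood for the gene. The methods used a one-way ANOVA and t-test at |FC| above 2; that threshold was kept and the methods' t-test is an alternative. Named were all 9 members, pathway genes called against DMSO, the 2 per list and comparison with the greatest change past the test, and the 3 genes most correlated with each called member; others named (EGF, ADAM17, undetected genes, markers) were chosen after their values were seen. Members, lists and tests were chosen with earlier results of these data known. Precision is limited by the 4 arrays per group.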

Additional observations from a re-analysis of the deposited data

Results flagged for a closer look

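In 72 groups of 4 arrays, 3 had 1 array far from the others (4.17%, where chance gives about 1 in 20): ERBB2 in DMSO 24 h replicate 2 (3.22, nearest 3.47), HBEGF in IC50 72 h replicate 3 (0.14, nearest -0.17), and TGFA NM_001308158 in DMSO 24 h replicate 2 (-0.66, nearest -1.20). DMSO 24 h replicate 2 was the only array of its group on its slide, and the part of slide in these values was not tested. The change at 1 µM differed between 72 h and 24 h, by the limma interaction, for EGFR A_23_P215790 (0.56), ERBB2 (-0.38), ERBB3 A_33_P3211569 (1.15), HBEGF (1.00), TGFA A_23_P377291 (1.58) and NRG1 A_23_P315815 (1.22) and A_33_P3284345 (1.32).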

How the results depend on the processing

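Over 64 probe results, alternatives other than leaving out an array left 404 of 418 values of results past the test on the same side and moved 14 below it, with no change of direction. Among results that did not pass, 4 changed sign: under normexp, ERBB3 at 1 µM 24 h (0.05), EGFR NM_201282 interaction (0.07) and BTC interaction (-0.02), and with the replicate block within each duration, NRG1 NM_001159996 at 1 µM 72 h against 24 h (-0.06). Members called moved to 0 at 1 µM 24 h and to 1 for the interaction under normexp; to 2 for the interaction with no dim filter or with probes well above background on all arrays; to 2 for 1 µM against IC50 at 24 h in the deposited table; without the fold threshold to 6 at 1 µM 72 h, 2 and 5 for 1 µM against IC50 at 24 h and 72 h, and 5 for the F test over the comparisons with DMSO (3 in the fit as reported, where 17.3% of all genes were called); and with the brightest probe only to 1 at 1 µM 24 h, 1 at 72 h, 1 against IC50 at 72 h, 2 for the interaction and 1 for the F test. Without the fold threshold, 69% of all 18023 genes tested passed at 1 µM 72 h, beside 6 of the 7 tested members. On the brightest probe only, 1.68% and 12.6% of all genes with a symbol were DEGs at 1 µM 24 h and 72 h. For the 1 µM interaction on that rule it was 6.33%. For the other changed counts in this section no share of all genes under the same rule is given, so they describe members only. AREG, which was not among the tested members, was called at 1 µM 24 h with no dim filter. The causes were not tested. Leaving out 1 array gave 0 to 3 members at 1 µM 24 h, 1 to 4 for the interaction, 1 to 2 against IC50 at 24 h, and 3 at 1 µM 72 h. Sign changes there ranged, over the left-out arrays, from -0.12 to 0.02 for EGFR NM_201282 at 1 µM 24 h, -0.12 to 0.02 for its interaction, and -0.2 to 0.04 for TGFA NM_001308158 against IC50 at 24 h, none past the test. Pathway counts at 1 µM 24 h were 3 higher and 2 lower with the 50th percentile, and 7 lower with the replicate block within each duration. Replicate numbers did not pair the samples by the rule that every pair exceed 0.1: same-numbered deviations correlated at -0.325 to 0.53 (median 0.116), 33 of 60 pairs over 0.1; within a duration the median was 0.195, with 17 of 24 pairs over 0.1, against -0.0453 for different numbers; and 15 of 24 arrays were most like their own number. With the replicate block, members called were 2 at 1 µM 24 h and 3 at 72 h, as without it. With the replicate block EGFR NM_201283 at 1 µM 24 h passed (-0.18, limma adjusted p = 0.0371). One slide held 1 µM only, so slide as a block could be fitted only for IC50 against DMSO, DMSO 72 h against 24 h and the interactions: it called 3 members for the 1 µM interaction, in place of 4, and 0 for the others, as without it.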
